A study of Oryza sativa with 12 samples.

Results

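Genes of moderate level that were higher at the later of the sampled stages of grain filling were followed in caryopses, the young grains, of the *RGB1* RNA interference line *RGB1Ri-5* and of its wild-type background *WYJ8* (Wuyujing 8, *Oryza sativa*). The genes were chosen by their level in *WYJ8* alone. A gene was included when its mean in *WYJ8* at 10 days after flowering (DAF) lay between 5 and 100 FPKM, when this mean was at least 4 times the mean in *WYJ8* at 5 DAF, and when each *WYJ8* library at 10 DAF was above each one at 5 DAF. FPKM is the count of sequenced fragments of a gene divided by transcript length and library size, and a gene that a library did not list was taken as 0. This rule gave 133 genes of the 35587 listed in at least 1 library (0.374%), or 1.29% of the 10328 genes whose *WYJ8* mean at 10 DAF was in the band. The 4 groups, each with 3 libraries made from total RNA of field-grown grain, were the *RGB1Ri-5* line and the *WYJ8* wild type, taken both at 5 and at 10 DAF. *RGB1Ri-5* carries a hairpin against *RGB1* driven by the maize ubiquitin promoter, which is active in most tissues, and it is a single transgenic line, so that an effect of the line cannot be told apart from one of the hairpin. Grains came from spikelets tagged by flowering date on many panicles, and no source used here ties a library to its own plants, so the p-values measure only the spread between these libraries.

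*RGB1* encodes the beta subunit of the rice heterotrimeric G protein, a membrane-bound switch that passes signals from receptors to the cell. In the first days after flowering the endosperm of the caryopsis divides its nuclei and forms cells, and it then fills these cells with starch and storage protein. Genes of starch synthesis, storage proteins and the transport of sugars and amino acids are known to be switched on in this change, and the most abundant storage protein transcripts reach levels far above the band used here.

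Of the 12 libraries, 2 stood apart from their replicates in the chosen genes, replicate 2 of *RGB1Ri-5* at 10 DAF and replicate 3 of *WYJ8* at 5 DAF, and tests that include the first of them are also given without it where its values decide them. Each library listed 27055 to 29576 genes. The 100 genes with the highest levels held 48.7% to 52.8% of all FPKM in the *WYJ8* libraries at 10 DAF, against 12.9% to 22.4% in the other 9 libraries. The median level of the tested genes was 4.90 to 5.25 FPKM in *WYJ8* at 10 DAF, against 8.95 to 11.2 FPKM in the other libraries. Read depth is unknown from FPKM values. In whole grains, fewer cells of a type and less RNA per cell cannot be told apart. The level of *RGB1* itself was not analysed here, so the labels of these libraries were not checked against the targeted gene. By Western blot, the study reported less RGB1 protein in *RGB1Ri-5* and in another interference line, *RGB1Ri-6*, which has no libraries here.

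In *WYJ8* the chosen genes had group means of 5.10 to 97.1 FPKM at 10 DAF (median 16.2) and of 0 to 23.1 FPKM at 5 DAF (median 1.75), with a median ratio of 7.99. These values chose the genes and carry no test. By this ratio, 67 genes were between 4 and 8 times higher at 10 DAF, 34 between 8 and 16 times, and 32 at least 16 times. The *WYJ8* libraries at 10 DAF differed by a median of 1.59 times between the highest and the lowest, and in 22 genes by at least 3 times. The genes just inside the lower limit averaged 5.10 and 5.11 FPKM, and those just outside 4.90 and 4.90 FPKM. At the upper limit the means were 97.1 and 95.2 FPKM inside and 100.4 and 105 FPKM outside. For the ratio, the nearest values were 4.01 and 4.02 inside and 3.97 and 3.92 outside. Only 1 gene in the band met the ratio but not the separation of libraries. The gene with the highest mean, LOC_Os06g11812 (chromosome 6, 6250716 to 6254517 in the annotation of the files), had 98.0, 86.8 and 106 FPKM in *WYJ8* at 10 DAF and 12.2, 13.4 and 43.6 FPKM at 5 DAF.

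In *RGB1Ri-5* most of these genes were low at both sampled stages. The study reported delayed caryopsis growth in its *RGB1* RNA interference lines, so equal DAF need not mean equal development. It also reported some starch synthesis transcripts that rose in these lines after 10 DAF. No library used here was later than 10 DAF, and whether a delay has a part in these levels was not tested. The group means had a median of 0.482 FPKM in *RGB1Ri-5* at 5 DAF (quartiles 0.103 and 1.92), against 1.75 FPKM in *WYJ8* (quartiles 1.12 and 3.58). At 10 DAF the median was 1.01 FPKM in *RGB1Ri-5* (quartiles 0.382 and 2.06), against 16.2 FPKM in *WYJ8* (quartiles 9.38 and 41.9). Means under 1 FPKM were found for 87 genes in *RGB1Ri-5* and 28 genes in *WYJ8* at 5 DAF, and for 66 genes in *RGB1Ri-5* and 0 in *WYJ8* at 10 DAF. A total of 36 genes stayed under 1 FPKM in all 6 *RGB1Ri-5* libraries, and 84 genes were listed in all 12 libraries. Each of the other 49 genes was unlisted in at least 1 *RGB1Ri-5* library. The plot of all values by library shows the *WYJ8* libraries at 10 DAF above all others.

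**Figure D1:**
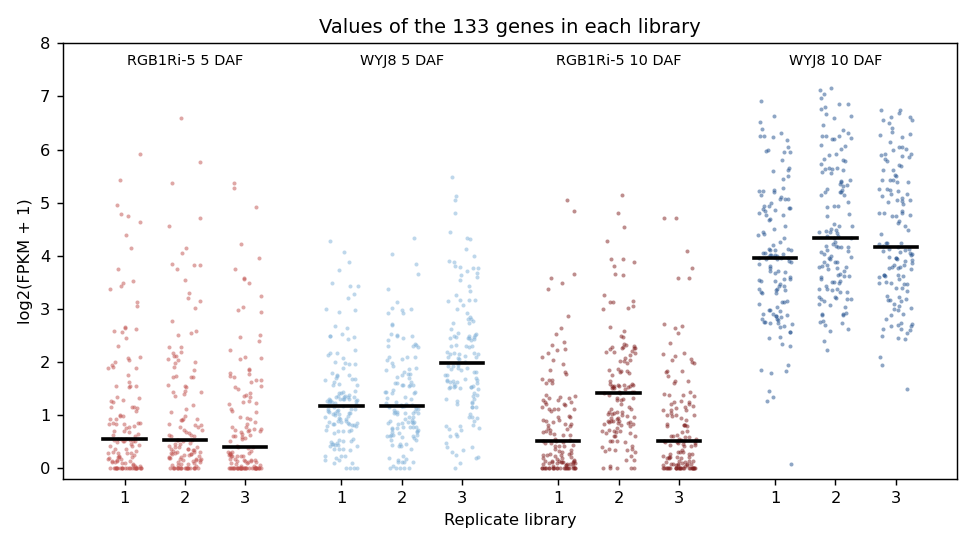
Level of each of the 133 genes, log2(FPKM + 1), in the 12 libraries; points are genes and black bars are medians. The *RGB1Ri-5* libraries at 10 DAF had medians of 0.416, 1.65 and 0.416 FPKM, against 14.5, 19.2 and 16.9 FPKM in *WYJ8*, whose high values at this stage were part of the choice of genes.

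Summed over the 133 genes, the FPKM at 5 DAF were 419.5, 472 and 301 in the *RGB1Ri-5* libraries, against 298, 295 and 697 in the *WYJ8* libraries. The ranges of the genotypes overlapped at this stage. At 10 DAF the sums were 212, 422 and 211 in the *RGB1Ri-5* libraries, against 2990, 4471 and 3889 in the *WYJ8* libraries. The sums averaged 398 ± 87.6 in *RGB1Ri-5* and 430 ± 231 in *WYJ8* at 5 DAF, and 282 ± 122 in *RGB1Ri-5* and 3784 ± 746 in *WYJ8* at 10 DAF (SD, n = 3 each). Levels of at least 5 FPKM at 10 DAF were reached by 8, 18 and 9 genes in the *RGB1Ri-5* libraries, against 119, 131 and 126 genes in the *WYJ8* libraries. The sum at 5 DAF was carried by few genes in *RGB1Ri-5*, where only 16 genes averaged at least 5 FPKM, against 23 genes in *WYJ8*.

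**Figure D2:**
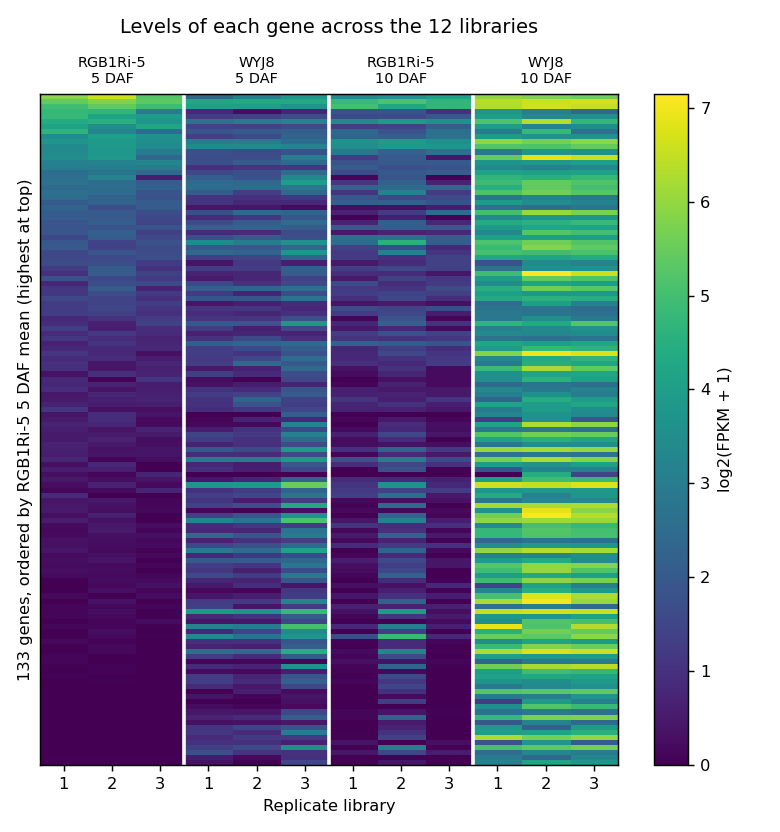
Heat map of log2(FPKM + 1) for the 133 genes (lines, ordered by their mean in *RGB1Ri-5* at 5 DAF) in the 12 libraries (columns, replicates 1 to 3 of each group). A small set at the top was high in *RGB1Ri-5* at 5 DAF, where 16 genes averaged at least 5 FPKM, and 87 genes averaged under 1 FPKM.

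The comparison of 10 DAF with 5 DAF within *RGB1Ri-5* asked whether the genes that are higher at 10 DAF in *WYJ8* also moved in the line. No *RGB1Ri-5* library was used to choose the genes, so this contrast was tested, by limma on log2(FPKM + 1) over all 21470 genes that averaged 1 FPKM or more across the 12 libraries. All 133 genes passed this filter because their level in *WYJ8* at 10 DAF was enough, and only 57 of them averaged 1 FPKM or more in the 6 *RGB1Ri-5* libraries. With calls made at a Benjamini-Hochberg adjusted p below 0.05 and a change of 1 or more on the log2 scale, 4 genes rose (3.01%), where 7.56% of all tested genes did. A further 11 genes fell (8.27%), against 9.35% of all tested genes, and 118 genes (88.7%) did not pass the test in either direction. Of the genes in the same *WYJ8* band, 7.61% rose and 3.94% fell. The other 76 genes averaged under 1 FPKM in the line, and with the filter set on the 6 *RGB1Ri-5* libraries the 4 that rose were 7.02% of the 57 genes left, against 7.34% of all genes then tested, and the 11 that fell were 19.3%, against 10% of all genes. The shares therefore depend on the filter, and nothing is read from them about the set. The median log2 fold change was 0.13 for the chosen genes (quartiles -0.35 and 0.49) and 0.10 for all tested genes. Without replicate 2 of *RGB1Ri-5* at 10 DAF the median was -0.06 for the chosen genes and 0.18 for all tested genes, with 3 of the chosen genes higher (2.26%, against 7.66% of all) and 14 lower (10.5%, against 7.92% of all). Taken without the size of the change, every library at 10 DAF was above every one at 5 DAF for 24 genes (18%), against 33% of all tested genes and 42.2% of those in the band, and below for 19 genes (14.3%), against 20.3% and 14.8%. The pseudocount of 1 shrinks the fold changes of genes at these levels, and with 0.1 in its place 17 genes rose (12.8%, against 9.87% of all) and 13 fell (9.77%, against 10.3% of all).

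**Figure D3:**
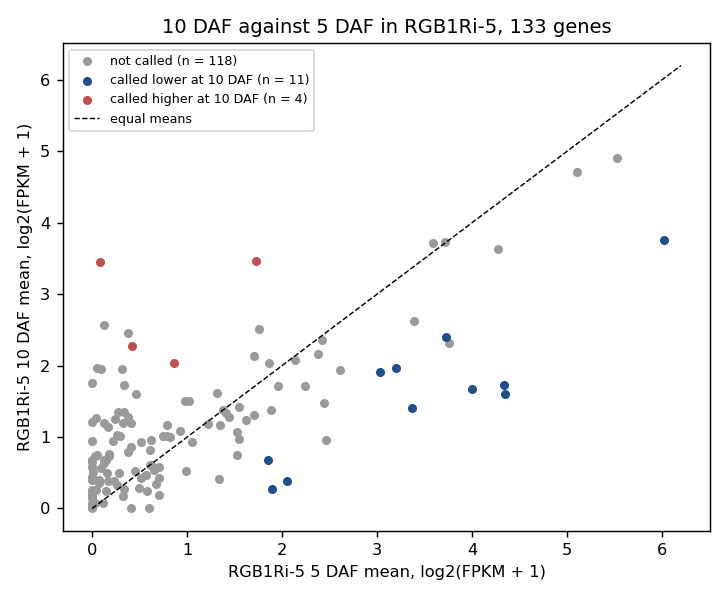
Mean level at 10 DAF (vertical axis) against mean level at 5 DAF (horizontal axis) in *RGB1Ri-5*, as log2(FPKM + 1), for the 133 genes; red points rose, blue points fell and grey points did not pass the limma test. Most of the 118 grey points lie near the lower left corner, and the 11 blue points lie to the right of the line of equal means.

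The 4 genes that rose are all named here, a choice made after their values were seen. LOC_Os03g06360 (chromosome 3, 3184491 to 3185937) had 2.41, 7.02 and 2.03 FPKM in *RGB1Ri-5* at 10 DAF, against 0.712, 0.0877 and 0.208 FPKM at 5 DAF. All libraries at 10 DAF were above all at 5 DAF, and the log2 fold change was 1.74 (SE 0.37, limma adjusted p = 0.00248). LOC_Os05g50920 (chromosome 5, 29221403 to 29224479) had 3.68, 3.07 and 2.53 FPKM at 10 DAF, against 0.568, 1.16 and 0.703 FPKM at 5 DAF. Its log2 fold change was 1.18 (SE 0.16, limma adjusted p = 0.000114), with the least spread among the 4. Both genes kept the call under all alternatives that were tried. In *WYJ8* at 10 DAF they stood at 49.2, 75.9 and 56.7 FPKM and at 17.4, 14.9 and 18.0 FPKM, above every *RGB1Ri-5* library.

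The other 2 genes that rose had their high value in replicate 2. LOC_Os08g09700 (chromosome 8, 5602621 to 5607317) had 2.15, 27.0 and 0.747 FPKM in *RGB1Ri-5* at 10 DAF and at most 0.119 FPKM in any library at 5 DAF, and its log2 fold change was 2.34 (SE 0.75, limma adjusted p = 0.0253). Without replicate 2 of *RGB1Ri-5* at 10 DAF the log2 fold change was 1.15 and the call held. The call was lost in 5 of the 25 alternatives, among them those without each *RGB1Ri-5* library at 5 DAF in turn (limma adjusted p = 0.0532 to 0.0673) and with only the 6 *RGB1Ri-5* libraries (limma adjusted p = 0.092). LOC_Os01g68670 (chromosome 1, 39878958 to 39879405) had 4.73, 22.3 and 3.15 FPKM at 10 DAF, against 2.84, 1.70 and 2.39 FPKM at 5 DAF, and its log2 fold change was 1.33 (SE 0.49, limma adjusted p = 0.0443). Without replicate 2 its log2 fold change was 0.57 and its limma adjusted p was 0.0614. The call was lost in 15 of the 25 alternatives, also without any 1 of the *RGB1Ri-5* libraries at 5 DAF (limma adjusted p = 0.0735 to 0.119) or of the *WYJ8* libraries (limma adjusted p = 0.0515 to 0.0589). In *WYJ8* these genes had 44.0, 39.1 and 59.3 FPKM and 34.1, 46.8 and 36.3 FPKM at 10 DAF.

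The largest decreases were in genes that stood well above their *WYJ8* level in *RGB1Ri-5* at 5 DAF. LOC_Os03g08940 (chromosome 3, 4635137 to 4636315) had 2.51, 2.58 and 0.997 FPKM in *RGB1Ri-5* at 10 DAF, against 26.0, 25.2 and 6.89 FPKM at 5 DAF. It fell by 2.60 on the log2 scale (SE 0.46, limma adjusted p = 0.000808). LOC_Os07g43740 (chromosome 7, 26173594 to 26174386) had 2.04, 1.98 and 2.95 FPKM at 10 DAF, against 26.6, 16.7 and 14.4 FPKM at 5 DAF. It fell by 2.57 (SE 0.23, limma adjusted p = 7.13e-06). At 5 DAF, *WYJ8* had 0.750, 0.175 and 0.676 FPKM of LOC_Os03g08940 and 1.38, 1.65 and 2.23 FPKM of LOC_Os07g43740, so that the groups did not overlap. A low *WYJ8* level at 5 DAF was part of the rule, and both genes were named for their fall from a high *RGB1Ri-5* level. This gap at 5 DAF therefore describes the choice and is no test. At 10 DAF the wild type had 12.1, 7.44 and 4.41 FPKM of LOC_Os03g08940, and 15.1, 9.30 and 11.4 FPKM of LOC_Os07g43740.

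Among the 133 genes, 5 had a mean in *RGB1Ri-5* at 5 DAF at or above their mean in *WYJ8* at 10 DAF. The *RGB1Ri-5* mean at 10 DAF was at most 50.9% of the *WYJ8* mean in every gene of the set. With the *RGB1Ri-5* means at 10 DAF this low, all 5 of these genes had to be lower at 10 DAF than at 5 DAF. The rule itself set no limit on the *RGB1Ri-5* levels at 10 DAF. Choosing the 5 genes by a high level at 5 DAF favours a fall, so their p-values lend it no support. Apart from LOC_Os03g08940 and LOC_Os07g43740, these were LOC_Os07g08150, LOC_Os02g30100 and LOC_Os10g38489, named after their values were seen. LOC_Os07g08150 (chromosome 7, 4143339 to 4144573) had 1.49, 1.71 and 3.34 FPKM in *RGB1Ri-5* at 10 DAF, against 16.7, 10.7 and 17.6 FPKM at 5 DAF, and fell by 2.34 (SE 0.26, limma adjusted p = 3.13e-05). LOC_Os02g30100 (chromosome 2, 17873661 to 17876075) had the highest mean of the set in *RGB1Ri-5* at 5 DAF. It had 10.2, 11.4 and 15.9 FPKM at 10 DAF, against 59.5, 95.0 and 37.7 FPKM at 5 DAF, and fell by 2.19 (SE 0.35, limma adjusted p = 0.000431). LOC_Os10g38489 (chromosome 10, 20553663 to 20560790) had 3.96, 3.39 and 5.52 FPKM at 10 DAF, against 10.2, 15.5 and 11.02 FPKM at 5 DAF, and fell by 1.32 (SE 0.24, limma adjusted p = 0.00103). In *WYJ8* at 10 DAF the libraries of these 3 genes lay between 8.08 and 15.2 FPKM for LOC_Os07g08150, 47.8 and 61.6 FPKM for LOC_Os02g30100, and 11.2 and 13.8 FPKM for LOC_Os10g38489. The time course of these 5 genes in *RGB1Ri-5* ran opposite to the one that chose them in *WYJ8*, which their choice by a high level at 5 DAF favoured.

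**Figure D4:**
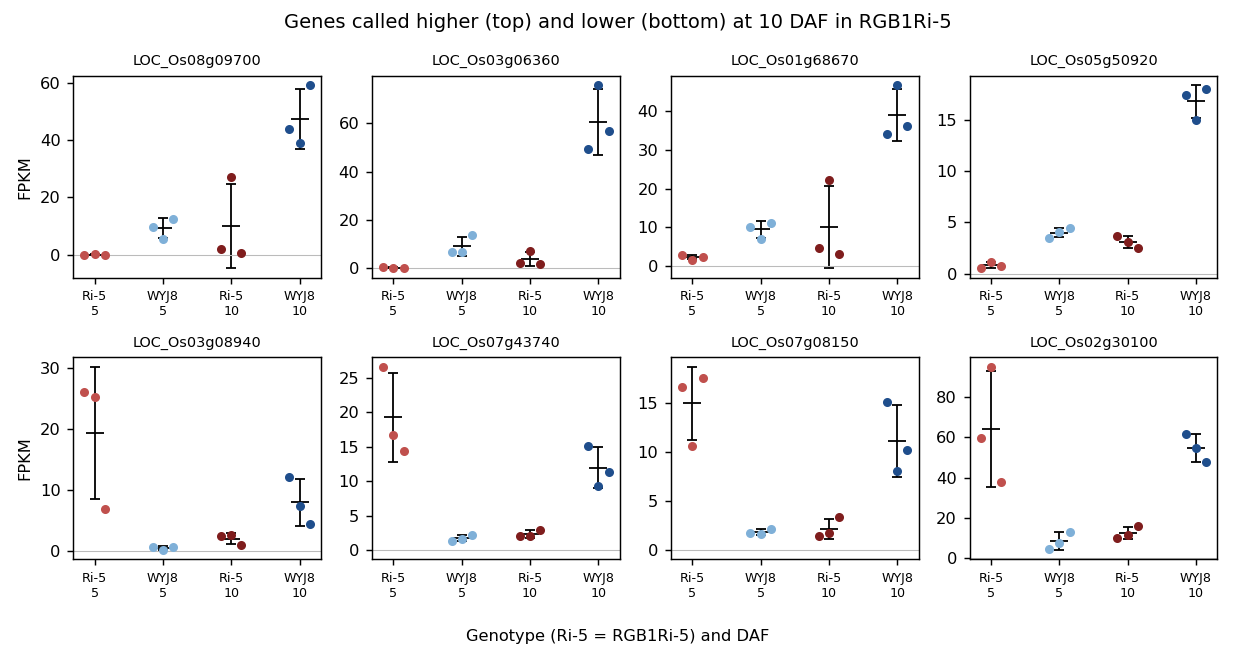
FPKM per library of the 4 genes that rose (top) and of 4 genes that fell (bottom) in *RGB1Ri-5*, with *RGB1Ri-5* left of *WYJ8* at each stage; points are libraries, the horizontal bars are means and the error bars are SD (n = 3). LOC_Os08g09700 and LOC_Os01g68670 each had 1 high library at 10 DAF, of 27.0 and 22.3 FPKM, whereas the genes below were high in *RGB1Ri-5* at 5 DAF.

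At 10 DAF, 132 of the 133 genes (99.2%) had every *RGB1Ri-5* library below every *WYJ8* library, where 5.6% of all tested genes and 7.16% of those in the band did. Since high *WYJ8* values at 10 DAF chose the genes, this count describes them and is no test. None was above, whereas 76.3% of all tested genes and 75.2% of those in the band had every *RGB1Ri-5* library above every *WYJ8* library. After rescaling by median of ratios, by quantiles or to equal totals without the 100 highest genes the count was 133, and with totals set to 1000000 it was 129. The mean in *RGB1Ri-5* was a median of 4.76% of that in *WYJ8* (quartiles 2.07% and 11.5%). It was under 5% for 70 genes, under 10% for 95 and under 25% for 120, and between 25% and 50% for 12 genes. LOC_Os06g11812 had 1.15, 11.6 and 0.744 FPKM in *RGB1Ri-5*, against its 98.0, 86.8 and 106 FPKM in *WYJ8*.

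The exception to the separation of libraries at 10 DAF and the gene nearest to its wild-type mean are given here, both named after their values were seen. LOC_Os05g38600 (chromosome 5, 22638493 to 22639018) had 0, 1.49 and 0 FPKM in *RGB1Ri-5*, against 1.39, 13.2 and 7.51 FPKM in *WYJ8*, so that replicate 2 of the line overlapped replicate 1 of the wild type. LOC_Os09g25720 (chromosome 9, 15430579 to 15431378) had the highest share of the wild-type level, 50.9%, with 6.31, 3.78 and 5.37 FPKM in *RGB1Ri-5* and 6.47, 12.7 and 11.1 FPKM in *WYJ8*. At 5 DAF the same gene had 9.38, 12.5 and 6.67 FPKM in *RGB1Ri-5*, against 2.34, 2.04 and 2.51 FPKM in *WYJ8*. Its log2 fold change within the line was -0.76 (limma adjusted p = 0.0311), which did not reach the fold required for a call.

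The gap to *WYJ8* was wider where the wild-type ratio was larger. For the genes 4 to 8 times higher in *WYJ8* at 10 DAF, the *RGB1Ri-5* mean at that stage was a median of 7.34% of the *WYJ8* mean. The median was 4.49% for the genes 8 to 16 times higher, and 1.17% for those at least 16 times higher. The median levels at 10 DAF in these classes were 1.43, 0.981 and 0.356 FPKM in *RGB1Ri-5*, against 13.5, 15.7 and 34.4 FPKM in *WYJ8*. All 4 genes that rose in *RGB1Ri-5* belonged to the first class, and of the 11 that fell, 7 did. The *WYJ8* values enter the classes and the percentages, so these medians describe the genes and no test was made.

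At 5 DAF the genotypes were mixed in these genes. Every *RGB1Ri-5* library was below every *WYJ8* library for 69 genes (51.9%), where 34.9% of all tested genes and 41.6% of those in the same band were. For 21 genes (15.8%) every *RGB1Ri-5* library was above, against 26.6% of all tested genes and 21.1% of the band, and 43 genes overlapped. The *WYJ8* libraries at 5 DAF took part in the rule through a low mean, so these counts are also a description. Without replicate 3 of *WYJ8* at 5 DAF, the first count was 69 and the second 32. Of the 133 genes, 80 stayed under 1 FPKM in all *RGB1Ri-5* libraries at 5 DAF, and 18 did so in all *WYJ8* libraries. LOC_Os01g06630 (chromosome 1, 3124350 to 3125325) was the 1 gene unlisted in all *WYJ8* libraries at 5 DAF, and it had 0.231, 0.0668 and 0.673 FPKM in *RGB1Ri-5*. It was unlisted in *RGB1Ri-5* at 10 DAF, and *WYJ8* had 0.0589, 20.5 and 1.79 FPKM there, so that its place in the set rests on 1 library.

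Replicate 2 of *RGB1Ri-5* at 10 DAF was higher than its replicates in many of the genes. It was at least 3 times both other libraries for 60 genes (45.1%), against 1.4% of all tested genes, and the highest of the 3 for 96 genes, against 18.7% of all tested genes and 24.8% of those in the band. Summed over these 60 genes, *RGB1Ri-5* had 20.3, 212 and 15.6 FPKM at 10 DAF, against 32.5, 36.3 and 19.2 FPKM at 5 DAF. The excess of replicate 2 in these sums restates how the 60 genes were picked, whereas the *RGB1Ri-5* values at 5 DAF did not enter that choice. The *WYJ8* values had chosen the 133 genes, so their difference between the stages restates the rule. *WYJ8* had sums of 1733, 2253 and 2081 FPKM at 10 DAF and 143, 120 and 447 FPKM at 5 DAF for the same genes. Even in replicate 2, the set of 133 genes had a median of 8.23% of the *WYJ8* mean at 10 DAF, against 2.13% and 2.26% in replicates 1 and 3. The count of 60 was 62 to 64 under the 4 rescalings.

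**Figure D5:**
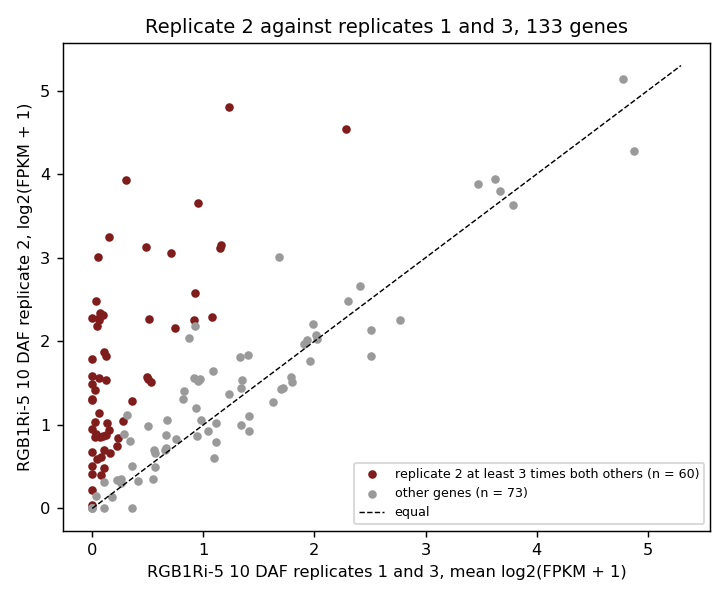
Replicate 2 of *RGB1Ri-5* at 10 DAF (vertical axis) against the mean of replicates 1 and 3 (horizontal axis), in log2(FPKM + 1), for the 133 genes. The 60 dark red genes, in which replicate 2 was at least 3 times both other libraries, lie above the line of equality by that choice and mostly near 0 on the horizontal axis; the other 73 are grey.

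The other 73 genes lacked this excess by the same choice, so the likeness of their libraries at 10 DAF is no result. Their sums at 10 DAF were 192, 209.5 and 196 FPKM in the *RGB1Ri-5* libraries, against 387, 436 and 282 FPKM at 5 DAF. In *WYJ8* the sums of these genes were 1257, 2219 and 1808 FPKM at 10 DAF and 156, 175 and 250 FPKM at 5 DAF. The 60 genes had a median of 0.129 FPKM in *RGB1Ri-5* at 5 DAF, with 52 of them under 1 FPKM, and the 73 had a median of 1.49 FPKM, with 35 under 1 FPKM. All 21 genes that were above *WYJ8* at 5 DAF were among the 73. These contrasts between the 60 and the 73 genes are descriptions of a split made on measured values and were not tested.

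Replicate 3 of *WYJ8* at 5 DAF was also high in these genes. It was at least 2 times both other libraries for 62 of the 133 genes, and the highest of its group for 105, against 14.8% of all tested genes and 16.1% of those in the band. Its median over the set was 2.93 FPKM, against 1.25 and 1.23 FPKM in replicates 1 and 2. In 38 genes both this library and replicate 2 of *RGB1Ri-5* at 10 DAF stood above their replicates by these limits, and in 49 genes neither did. The excess of the libraries over their replicates correlated across the 133 genes with r = 0.56 and rho = 0.57, and across all tested genes with r = 0.37 and rho = 0.24. The points are genes that share the same libraries and are not independent, so no p is given.

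Of the transcription factors in the copy of the study's promoter table used here, 126 were listed and 57 lay in the band, and 0 belonged to the set. With 1.29% of the band in the set, a count of 0 among 57 says nothing about these factors. The nearest was Os08g45110 (chromosome 8, 28321215 to 28322394), with a ratio of 3.82 in *WYJ8*. It had 0.746, 6.68 and 0.541 FPKM in *RGB1Ri-5* at 10 DAF, and 31.0, 27.4 and 29.6 FPKM in *WYJ8*. At 5 DAF it had 0.0505, 0.136 and 0.153 FPKM in *RGB1Ri-5* and 7.31, 4.32 and 11.4 FPKM in *WYJ8*. Replicate 2 of *RGB1Ri-5* at 10 DAF and replicate 3 of *WYJ8* at 5 DAF were again the high ones, and the log2 fold change within the line was 1.30 (limma adjusted p = 0.0515), and 0.56 without replicate 2 at 10 DAF (limma adjusted p = 0.112). OsNF-YB1, an endosperm-specific subunit of the nuclear factor Y complex (chromosome 2, 30191470 to 30192489), had 17.5, 109.6 and 8.04 FPKM in *RGB1Ri-5* at 10 DAF, against 0.155, 0.607 and 0.0754 FPKM at 5 DAF. It rose by a log2 fold change of 4.39 (limma adjusted p = 0.00033), and by 3.36 without replicate 2 at 10 DAF (limma adjusted p = 3.6e-05). In *WYJ8* it had 331, 320 and 252 FPKM at 10 DAF and was already at 148, 133 and 294 FPKM at 5 DAF.

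When the same conditions were applied within *RGB1Ri-5*, 18 of the 133 genes (13.5%) had a mean at 10 DAF at least 4 times that at 5 DAF with no overlap, where 3.95% of all tested genes and 3.28% of those in the band had. Their means at 10 DAF were 0.144 to 10.1 FPKM with a median of 1.49 FPKM. Of these means 16 were below 5 FPKM, and 6 were below 1 FPKM. A gene unlisted in *RGB1Ri-5* at 5 DAF met the ratio with any level at 10 DAF, as LOC_Os07g15540 did with a mean of 0.144 FPKM. The share of 13.5% is therefore not read as a result about the set. Of the 18, only 3 passed the limma test, which adds 1 to each level. Without replicate 2 of *RGB1Ri-5* at 10 DAF the count was 12, and without replicate 3 it was 28, with no share of all tested genes computed beside them. With the level band included, 461 genes met the rule in *RGB1Ri-5*, and 2 of them were shared with the 133, LOC_Os01g68670 and LOC_Os08g09700. This was 1.5% of the genes chosen in *WYJ8* and 0.434% of those found in *RGB1Ri-5*. The 461 genes made up 2.15% of all tested genes and 2.6% of those in the *WYJ8* band (269 genes), so that the small overlap is near the background and is no result about the set.

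A further 84 genes met the conditions on ratio and separation in *WYJ8* but averaged more than 100 FPKM at 10 DAF, up to 22834 FPKM. These more abundant genes had a median of 29.7 FPKM in *RGB1Ri-5* at 10 DAF, against 569 FPKM in *WYJ8*, and the *RGB1Ri-5* mean was a median of 4.51% of the *WYJ8* mean, close to the 4.76% of the 133. Of the 84, 12 rose in *RGB1Ri-5* by the limma test (14.3%, against 7.56% of all tested genes) and 3 fell (3.57%, against 9.35%). Without replicate 2 at 10 DAF 13 rose (15.5%, against 7.66% of all tested genes) and 6 fell (7.14%, against 7.92%). Over the 84 genes the median log2 fold change was 1.75 with that library and -0.01 without it. Whether the shares of genes that rose or fell differed from those of the 133 genes was not tested. Replicate 2 of *RGB1Ri-5* at 10 DAF was at least 3 times its replicates in 70 of the 84.

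The 133 genes lay on all 12 chromosomes. They made up 1.05% of the tested genes on chromosome 5, with 19 genes, and 0.452% to 0.755% on the others. The loci were short, with a median length of 1545 bp, against 3477 bp for all tested genes and 3931.5 bp for the genes of the same band. A length under 1000 bp was found for 44 of the 133 (33.1%), against 4.21% of the band. The 84 more abundant genes were shorter still, with a median of 1131.5 bp. FPKM divides by transcript length, and whether length had a part in the choice of genes was not tested.

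In 4 places, 2 of the chosen genes were direct neighbours among the listed loci. LOC_Os05g26240 and LOC_Os05g26250 on chromosome 5, 3336 bp apart, were unlisted in *RGB1Ri-5* at both stages except in replicate 2 at 10 DAF, where they had 0.166 and 0.937 FPKM. In *WYJ8* at 10 DAF, LOC_Os05g26240 had 6.38, 7.14 and 12.6 FPKM and LOC_Os05g26250 had 36.7, 38.7 and 41.1 FPKM. LOC_Os03g16920 and LOC_Os03g16940 on chromosome 3, 2780 bp apart, differed in level at 10 DAF. LOC_Os03g16920 had 0.670, 1.48 and 0.869 FPKM in *RGB1Ri-5* and 14.5, 26.0 and 23.5 FPKM in *WYJ8*, and LOC_Os03g16940 had 0.342, 7.77 and 0.457 FPKM in *RGB1Ri-5* and 61.2, 66.6 and 65.5 FPKM in *WYJ8*. Only the second of these had a clearly high replicate 2 in *RGB1Ri-5*. LOC_Os04g32070 and LOC_Os04g32080 on chromosome 4, 1452 bp apart, averaged 0.341 and 0.759 FPKM in *RGB1Ri-5* at 10 DAF, and 18.3 and 16.2 FPKM in *WYJ8*. LOC_Os10g19912 and LOC_Os10g19919 on chromosome 10, 6362 bp apart, averaged 0.198 and 0.934 FPKM in *RGB1Ri-5* at 10 DAF, and 10.6 and 13.02 FPKM in *WYJ8*. These pairs were named for their position after the values were seen.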

How the data were processed

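Caryopses of *RGB1Ri-5* and *WYJ8* at 5 and 10 DAF were measured by RNA-seq, with 3 libraries in each of 4 groups taken from the sample labels. The authors filtered the reads for quality, mapped those left with TopHat2 (2.1.0) against the MSU rice annotation (Release 7) and computed FPKM per gene with Cufflinks (2.1.1). The submitters' processing notes also list FastQC. The deposited FPKM of each library list no value of 0, and unlisted genes were set to 0. Neither counts nor depth can be recovered from them, so no counting interval is given. No 2 libraries held identical values. Locus positions are those of the deposited files.

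The test took the genes averaging 1 FPKM or more across the 12 libraries. The deposited FPKM were turned into log2(FPKM + 1) and fitted by group with limma 3.58.1 in R 4.3.3, with a mean-variance trend and p-values adjusted by Benjamini-Hochberg across every tested gene. Calls required an adjusted p below 0.05 and a change of 1 or more, up or down, on the log2 scale. Only 10 DAF minus 5 DAF in *RGB1Ri-5* was tested, since the other contrasts contain libraries that chose the genes. The procedure was checked on simulated data, with changes planted only in genes above a set level in *RGB1Ri-5* at 5 DAF. Most of the chosen genes lie below that level, so the check says nothing about how often their changes are found. The members and the lists were chosen with earlier results of these data known.

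The naming rule was the genes highest in *WYJ8* at 10 DAF, those with the largest called changes in either direction within *RGB1Ri-5*, those next to the limits, those of the study's promoter table, and those highest in *RGB1Ri-5* at 5 DAF relative to *WYJ8* at 10 DAF. No table used here pairs the locus identifiers with names or products. The rule gives more genes than are named here, also in the parts that need no product names. Genes outside the rule are said to be chosen after their values were seen. Lists by product, promoter motifs, sequences and the level of *RGB1* were not analysed here.

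Alternatives covered the pseudocount, the filter, the scaling, unlisted genes, the trend, the fold limit, the samples fitted, the limits of the rule, each replicate left out in turn and a replicate block. Same-numbered *RGB1Ri-5* libraries of 5 and 10 DAF did not deviate together in all 3 pairs.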

Additional observations from a re-analysis of the deposited data

Results flagged for a closer look

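In 19 of the 133 genes (14.3%) every *RGB1Ri-5* library at 10 DAF was below every one at 5 DAF. The same held for 20.3% of all tested genes and 14.8% of those in the band. In the *WYJ8* libraries the direction of the 19 was the opposite. Of the 19, 11 were called lower by limma (8.27% of the 133, against 9.35% of all tested genes and 3.94% of the band). The 5 of these with a 5 DAF mean in *RGB1Ri-5* at or above the *WYJ8* mean at 10 DAF are given here. Their log2 fold changes in *RGB1Ri-5* were -2.60 for LOC_Os03g08940, -2.57 for LOC_Os07g43740, -2.34 for LOC_Os07g08150, -2.19 for LOC_Os02g30100 and -1.32 for LOC_Os10g38489. Among the others called lower, the largest falls were -1.99 for LOC_Os01g50910, -1.65 for LOC_Os06g51260 and -1.62 for LOC_Os01g03680 (limma adjusted p = 0.00989, 1.44e-05 and 0.000472). These were picked for the size of their fall, and their 5 DAF means in *RGB1Ri-5* were below the *WYJ8* means at 10 DAF. The direction in *WYJ8* was set by the choice of the genes, so the difference between the genotypes was not tested. The fall of the 5 in *RGB1Ri-5* was favoured by their choice for a high level at 5 DAF. Nothing is read from the counts of 19 and 11 about the set.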

How the results depend on the processing

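Of the genes that rose in *RGB1Ri-5* (4, or 3.01%, against 7.56% of all tested genes), the count was 9 with no fold limit. With all genes above 0 it was 2 (1.5%, against 4.64% of all), and with totals set to 1000000 it was 10 (7.52%, against 9.26%). It was 2 with only the 6 *RGB1Ri-5* libraries (1.5%, against 7.38%) and 17 with a pseudocount of 0.1 (12.8%, against 9.87%). With 1 library left out it was 2 to 9. It was 2 without *RGB1Ri-5* replicate 1 at 5 DAF (1.5%, against 7.11%) and 9 without *RGB1Ri-5* replicate 3 at 10 DAF (6.77%, against 8.03%). The count of genes that fell (11, or 8.27%, against 9.35% of all tested genes) was 7 with a filter at a mean of 5 FPKM (9.46%, against 8.4%). It was 10 to 14 with 1 library left out, the most without *RGB1Ri-5* replicate 2 at 10 DAF (10.5%, against 7.92%). With no fold limit 5787 of all tested genes rose, where 1624 did with it, and 3600 fell, where 2007 did with it. With a filter at 5 FPKM 1254 fell. With a replicate block 3 of the 133 genes rose (2.26%, against 7.54% of all tested genes) and 11 fell (8.27%, against 9.33%). LOC_Os01g68670 was not called with the block (adjusted p = 0.0594).

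With the conditions applied in *RGB1Ri-5* (18 genes), leaving out 1 library gave 12 to 28. The count of genes above *WYJ8* at 5 DAF (21) was 21 to 32. The rule gave 345 genes after median-of-ratios rescaling, 114 of them among the 133, and 225 with equal totals without the 100 highest genes, 119 of them shared. With 1 *WYJ8* library left out it gave 119 to 172 genes, the most without replicate 3 at 5 DAF. Of the 345, 337 were below *WYJ8* in every library at 10 DAF, 46 rose and 40 fell within the line. Under the same rescaling 6.25% of all tested genes rose and 9.95% fell. The genes chosen and their calls thus depend on the scaling, and nothing is read from these counts about the set. The median log2 fold change of the 133 genes was -0.17 with a filter at 1 FPKM in *RGB1Ri-5*, which left 57. No called value reversed.

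The values carry no depth, so levels near 0 cannot be told apart from absence.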
